A study of Mus musculus with 16 samples.

Results

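The transcripts described here are 38 marker genes of neurons, astrocytes, oligodendrocytes and oligodendrocyte precursors, measured in microglia sorted from mouse brain. They were chosen by symbol, and 37 of the 38 had a line among the 53700 genes counted in each library, of which 29343 had a count in at least 1 library. The list holds 18 neuron, 9 astrocyte, 8 oligodendrocyte and 3 precursor markers, and the astrocyte entry Aldoc-ps1 had no line. Bulk RNA was sequenced from 16 libraries in 4 groups of 4. The groups were Ercc1 knockout (KO) mice at 12 weeks of age, wild-type (WT) mice at 12 weeks, Ercc1 KO mice at 6 weeks and WT mice at 6 weeks. The deleted gene, Ercc1, codes for part of a nuclease used in DNA repair. All mice were on a C57Bl6J/FVB cross, and whole brains were dissociated mechanically in the cold. The gate selected DAPI-negative, CD11b-high and CD45-intermediate cells that lacked Ly6c. The 12-week groups each held 3 males and 1 female, and the 6-week groups each held 2 males and 2 females. Labels name no separate animal or pool behind a library, so p-values measure the spread between these libraries.

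Neurons release transmitter from synaptic vesicles, astrocytes take up glutamate and buffer ions around synapses, and oligodendrocytes wrap axons in myelin. Their marker genes are not used as markers of microglia. Microglia engulf synapses, myelin and dying cells, and a sorted cell can also carry debris or free RNA from the dissociated tissue, so such transcripts can be found in microglial RNA by several routes. RNA carried over in the sort, RNA taken up by the sorted cells, transcription in microglia and a few sorted cells of another type cannot be told apart in bulk libraries. Fewer cells of a type and less RNA per cell cannot be told apart either.

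Depth at 12 weeks was 7882182 to 9653663 counts per KO library and 9045823 to 22142972 per WT library. At 6 weeks it was 9885121 to 17499408 per KO library and 8250645 to 13278797 per WT library. Levels are given as CPM, counts scaled to library size with the TMM method, and a floor of 3 counts corresponded to 0.131 to 0.375 CPM in a single library. Summed CPM of 14 microglia markers lay between 55951 and 86763 in every library, so the label of the sorted cells fits their defining genes. Ercc1 stood at 4.27 ± 2.80 CPM (SD, n = 4) in 12-week KO against 20.7 ± 19.2 CPM in 12-week WT. It stood at 3.62 ± 0.801 CPM in 6-week KO against 18.8 ± 7.89 CPM in 6-week WT, and no KO library reached the lowest WT library of its age. In the model over all genes Ercc1 missed the threshold at both ages (edgeR adjusted p = 0.105 at 12 weeks and 0.209 at 6 weeks). Among the 12-week WT libraries, replicate 5_6 is labelled male but had 338.8 CPM of Xist and 109 CPM of summed Y-linked genes. The sex term of the model took the label of this library. A principal component analysis set 2 further 12-week WT libraries apart, replicate 3 along component 2 and replicate 8 along component 3. Results that change without these libraries are given with and without them.

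The 37 markers with a line together took 0.0378% to 0.0483% of counts in 12-week KO libraries, 0.0450% to 0.0587% in 12-week WT, 0.0378% to 0.0513% in 6-week KO and 0.0429% to 0.0630% in 6-week WT. Between 29 and 33 of them had a count in a 12-week KO library, against 27 to 31 in a 12-week WT library. The corresponding numbers were 32 to 35 in 6-week KO and 30 to 34 in 6-week WT. At the depth of the shallowest library, 7882182 counts, the expected numbers were 29.0 to 33.0 in 12-week KO, 27.0 to 30.8 in 12-week WT, 31.8 to 34.1 in 6-week KO and 30.0 to 34.0 in 6-week WT. Thinning the counts to this depth thus changed the number detected by little. The calculation treats counts as independent, which PCR copies are not, so it cannot show how far depth limits detection.

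Of the 37, 23 had a count in all 16 libraries, namely 15 neuron, 3 astrocyte, 4 oligodendrocyte and 1 precursor marker. Olig2, a transcription factor of the oligodendrocyte lineage, had no count in any library. Pdgfra, the growth factor receptor that defines oligodendrocyte precursors, had 1 to 3 counts in each of 5 libraries and none in the others. Olig1, the close relative of Olig2, had counts in 8 libraries. These 3 genes fell below the filter on low counts, and the other 34 were tested. A test was run on 17090 genes in all.

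**Figure D1:**
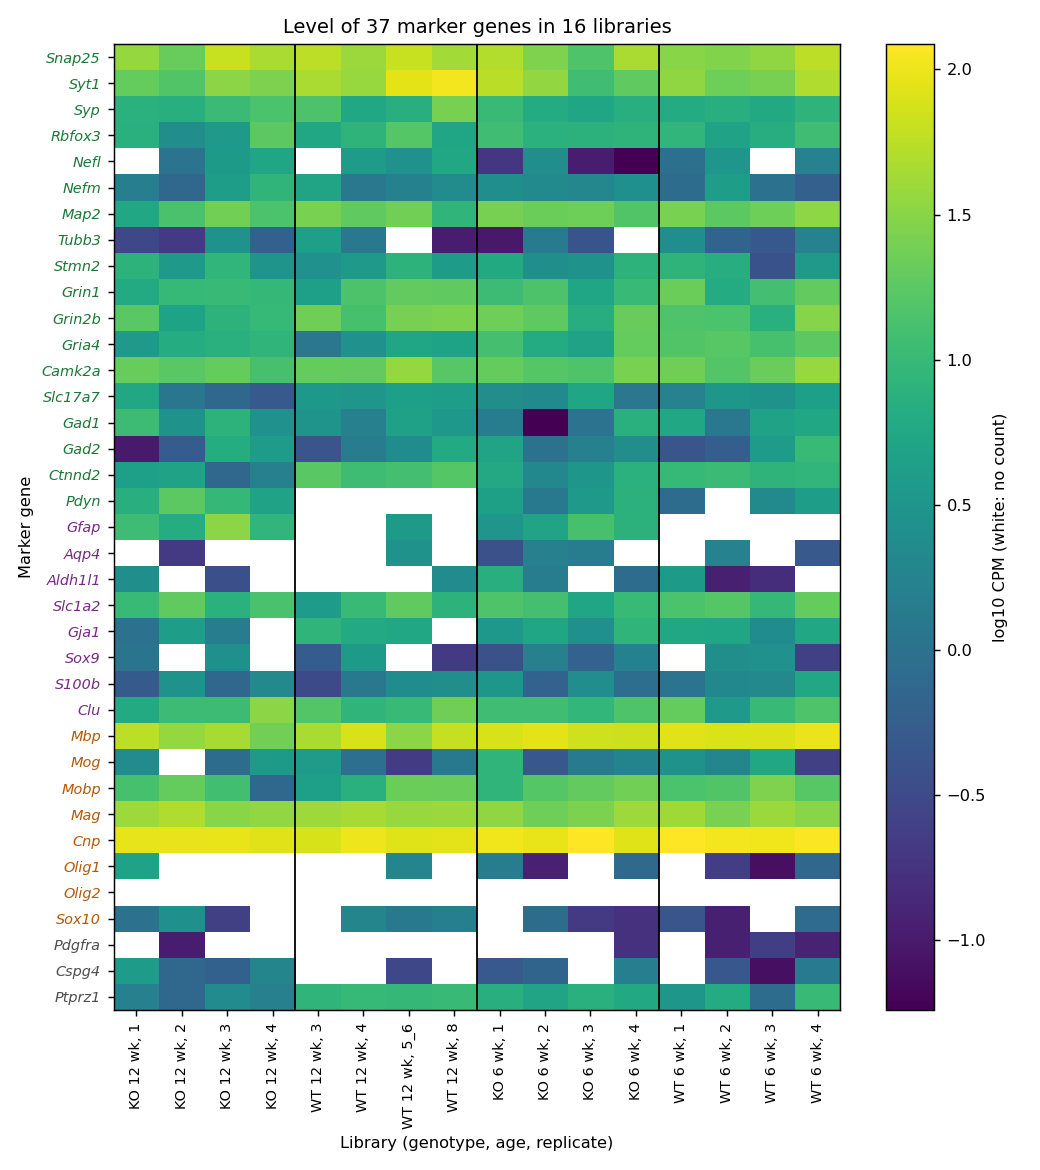
Level of the 37 marker genes with a line (rows, coloured by class: green neuron, purple astrocyte, orange oligodendrocyte, grey precursor) in each of the 16 libraries (columns, vertical lines between groups), as log10 CPM; white marks no count. Cnp, Mbp and Mag fill all 16 columns, while Pdyn is white in all 4 libraries of 12-week WT and Gfap in all 4 of 6-week WT.

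The spread between replicates differed widely among the markers. The coefficient of variation within a group, taken as the median over the 4 groups, was 9.33% for Cnp, 19.6% for Mag and 23.1% for Mbp. All 3 encode proteins of myelin or of the cells that form it. It was 51.4% for the median tested marker, above 100% for 7 markers, and highest at 175% for Aldh1l1, a folate enzyme of astrocytes. Several markers with a wide spread had counts in only some libraries: Aqp4, the water channel of astrocyte endfeet, in 7 libraries, Aldh1l1 in 9, and the glial transcription factors Sox9 and Sox10 in 12 each. Of 67 Aqp4 counts at 12 weeks, 2 were in KO and 65 in WT, all 65 of them in replicate 5_6. The KO to WT ratio of mean Aqp4 CPM was 0.0746. The counting interval, 0.00536 to 0.170, is for the ratio of the pooled counts scaled to depth, and covers counting error only.

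The promoters shown are those of Pdyn, Ctnnd2 and Ptprz1, which passed the test of KO against WT at 12 weeks, and of Gfap. Gfap missed the threshold at both ages but had the smallest p of the markers between genotypes at 6 weeks. The sequences are from RefSeq on the GRCm38.p6 build (250 bases before and 50 after the listed start, with position 1 at the 5′ end). They lie at chr2:129699889-129700188 on the minus strand (Pdyn, the first of 2 starts listed), chr11:102897151-102897450 on the minus strand (Gfap), chr15:30172284-30172583 on the plus strand (Ctnnd2) and chr6:22875252-22875551 on the plus strand (Ptprz1). Capitals mark matches on either strand to the 4 motifs searched: TTCNNNGAA (bound by STAT factors), AANNGAAA (the core bound by IRF factors), TGACGTCA (the cyclic AMP response element) and CAGAC (the SMAD binding element).
Pdyn: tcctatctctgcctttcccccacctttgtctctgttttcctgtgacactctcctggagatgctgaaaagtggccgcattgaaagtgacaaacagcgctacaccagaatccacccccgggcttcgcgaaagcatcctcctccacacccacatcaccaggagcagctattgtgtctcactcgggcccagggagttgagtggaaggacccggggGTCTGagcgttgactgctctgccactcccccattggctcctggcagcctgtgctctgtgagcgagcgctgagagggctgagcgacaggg
Gfap: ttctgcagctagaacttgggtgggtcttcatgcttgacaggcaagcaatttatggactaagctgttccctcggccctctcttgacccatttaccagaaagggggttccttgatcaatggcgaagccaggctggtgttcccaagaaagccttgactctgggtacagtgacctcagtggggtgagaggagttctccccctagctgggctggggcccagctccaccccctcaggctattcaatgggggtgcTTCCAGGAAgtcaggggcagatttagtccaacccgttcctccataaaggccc
Ctnnd2: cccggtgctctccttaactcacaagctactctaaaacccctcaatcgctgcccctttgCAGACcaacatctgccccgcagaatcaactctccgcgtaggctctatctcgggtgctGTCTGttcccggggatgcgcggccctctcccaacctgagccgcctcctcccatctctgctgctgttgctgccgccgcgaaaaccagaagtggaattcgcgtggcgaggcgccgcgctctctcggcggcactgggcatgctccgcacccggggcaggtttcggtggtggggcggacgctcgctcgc
Ptprz1: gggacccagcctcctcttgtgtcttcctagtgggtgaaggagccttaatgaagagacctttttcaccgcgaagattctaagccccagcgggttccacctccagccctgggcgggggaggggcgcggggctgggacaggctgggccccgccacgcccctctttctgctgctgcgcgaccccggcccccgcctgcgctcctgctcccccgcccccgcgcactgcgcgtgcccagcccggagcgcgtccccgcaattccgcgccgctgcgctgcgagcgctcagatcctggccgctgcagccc
Pdyn held a CAGAC match at base 212, Gfap a TTCNNNGAA match at base 249, and Ctnnd2 held CAGAC matches at bases 59 and 116. Ptprz1 held no match to these letters, and no matches overlapped. Of 27025 promoters of the same length, 8.47% held TTCNNNGAA, 24.2% AANNGAAA, 1.88% TGACGTCA and 49.7% CAGAC. A match is a description of the sequence and no evidence of binding. Entries were found for 25 of the 37 markers.

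KO and WT microglia were compared at 12 weeks to ask how neural transcripts in the sorts differed at the older age. Pdyn rose in KO, while Ctnnd2 and Ptprz1 fell. The classes as a whole did not move in 1 direction: 20 of the 34 tested markers had a log2 change below 0, where 52% of all genes did, and their median change was -0.23, beside -0.03 over all genes. The vesicle protein genes all lay below 0, but none of them passed the test. No myelin gene passed either. On the log2 scale (edgeR estimate ± SE) Cnp lay at 0.07 ± 0.13, Mag at -0.07 ± 0.20, Mbp at -0.43 ± 0.27, Mobp at -0.23 ± 0.69 and Mog at 0.23 ± 1.36.

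Of the 34 tested markers 3 passed an adjusted p of 0.05 (edgeR quasi-likelihood test, Benjamini-Hochberg over all genes), 1 higher and 2 lower in KO. Over all 17090 genes 2.98% passed, 2.03% higher and 0.954% lower. At an unadjusted p under 0.05 there were 8 markers, 4 higher and 4 lower, where 14.4% of all genes reached it. Both neuron and precursor markers were among the 3 calls, and no astrocyte or oligodendrocyte marker was. Ctnnd2 and Ptprz1 were already known to differ in these libraries when the markers were chosen.

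Pdyn (ENSMUSG00000027400) encodes prodynorphin, the precursor of the dynorphin opioid peptides of neurons. It had 72, 168, 77 and 38 counts in 12-week KO replicates 1 to 4, against no count in any of the 4 libraries of 12-week WT. In CPM the KO libraries stood at 7.26, 17.8, 9.46 and 4.75. Every KO library was well above its floor of 3 counts, and the groups did not overlap. Set against a floor of 3 counts over the WT group, Pdyn was at least 171-fold higher in KO (edgeR adjusted p = 0.0041). This bound fell to 95.99-fold without WT replicate 5_6, the deepest library, and the call held in all 16 fits that left out 1 library (adjusted p from 0.0011 to 0.015) and without WT replicates 3 and 8 together (adjusted p = 0.029).

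Ctnnd2 (ENSMUSG00000022240) encodes delta-catenin, an adhesion protein of neuronal dendrites and synapses. It stood at 4.34, 4.77, 0.737 and 1.63 CPM in 12-week KO, against 17.1, 11.3, 12.3 and 16.1 CPM in 12-week WT. KO replicates 3 and 4 were lowest, and the highest KO library was below the lowest WT library. The log2 change was -2.45 ± 0.53 (edgeR adjusted p = 0.019). The adjusted p was 0.062 without WT replicate 3, 0.056 without KO replicate 3 and 0.057 without KO replicate 4, 0.16 when only the 12-week groups were fitted and 0.16 without WT replicates 3 and 8 together.

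Ptprz1 (ENSMUSG00000068748) encodes a receptor tyrosine phosphatase of oligodendrocyte precursors and astrocytes. It stood at 1.61, 0.743, 2.33 and 1.63 CPM in 12-week KO, against 8.53, 9.67, 9.50 and 10.2 CPM in 12-week WT. The WT libraries lay close together and all were more than 6 CPM above the highest KO library. The log2 change was -2.56 ± 0.63 (edgeR adjusted p = 0.038). The call was kept in 3 of 16 fits that left out 1 library, those without 6-week WT replicate 3, 6-week WT replicate 4 or 12-week KO replicate 3. In the other fits the adjusted p ran up to 0.12, the value without 12-week KO replicate 2, while the log2 change stayed between -2.90 and -2.29. Without 12-week WT replicates 3 and 8 together the adjusted p was 0.15.

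**Figure D2:**
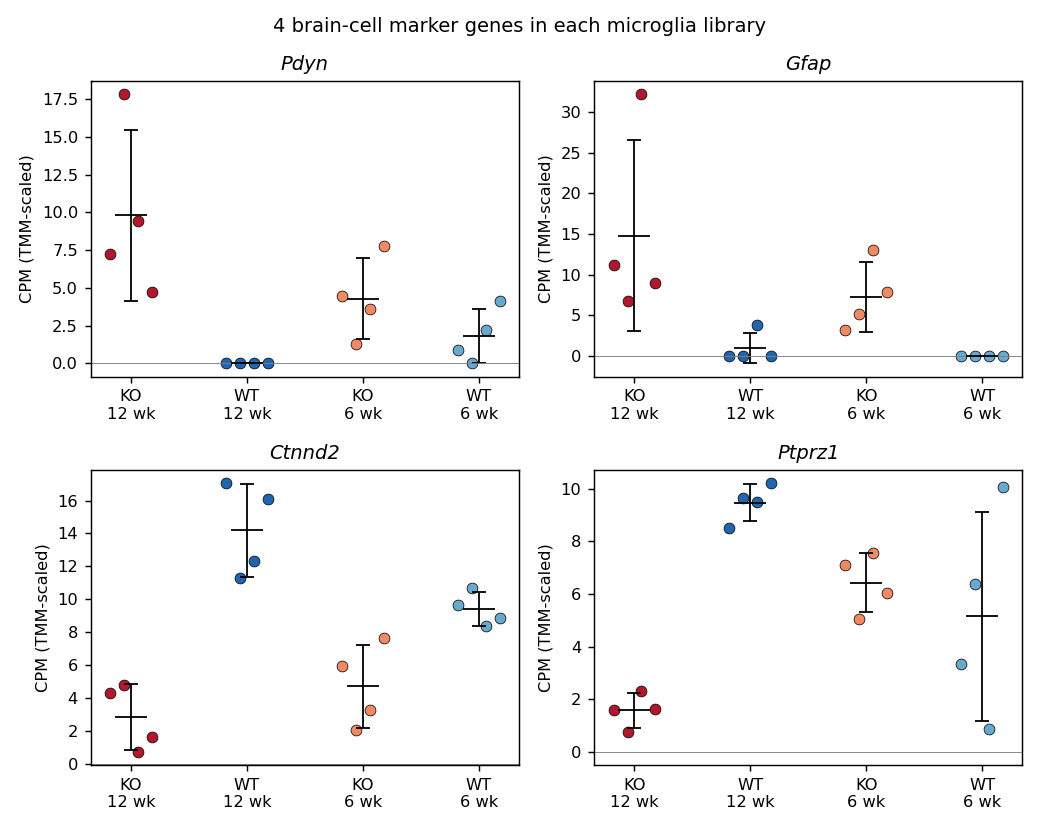
CPM of Pdyn, Gfap, Ctnnd2 and Ptprz1 in each library (points) of the 4 groups, with the group mean and SD (n = 4; horizontal bar and whiskers). Pdyn sits at 0 in all 12-week WT libraries and Gfap in all 6-week WT libraries, while Ctnnd2 and Ptprz1 in 12-week KO lie below 5 CPM and below every 12-week WT library.

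Among genes of vesicle release, all 3 had a log2 change below 0, from -1.51 to -0.25. Syt1, the calcium sensor for release, stood at 19.96, 15.3, 31.8 and 26.8 CPM in 12-week KO, against 45.8, 37.5, 88.5 and 108 CPM in 12-week WT. The groups did not overlap, and WT replicates 5_6 and 8 were highest. The log2 change of Syt1 was -1.51 ± 0.45, which missed the threshold (edgeR adjusted p = 0.090). It passed without KO replicate 3 (adjusted p = 0.047), with DESeq2 (adjusted p = 0.013) and without a filter on low counts (adjusted p = 6.9e-05). Snap25, a membrane fusion protein of the same machinery, stood at 36.8, 20.6, 65.1 and 46.7 CPM in KO, against 57.9, 38.6, 64.8 and 42.1 CPM in WT. These groups overlapped, and the log2 change was -0.25 ± 0.39 (edgeR adjusted p = 0.88).

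Of the 3 glutamate receptor subunits 2 had a change below 0. Grin2b, a subunit of NMDA receptors, changed by -1.19 ± 0.45 on the log2 scale (edgeR adjusted p = 0.21). Gria4, a subunit of AMPA receptors, lay in the other direction. It stood at 3.63, 6.68, 7.37 and 8.63 CPM in 12-week KO, against 1.19, 2.75, 5.34 and 4.84 CPM in 12-week WT. The groups overlapped, and the log2 change was 1.04 ± 0.47 (edgeR adjusted p = 0.32).

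Camk2a, a kinase concentrated at excitatory synapses, stood at 20.6, 17.1, 20.3 and 13.3 CPM in 12-week KO, against 19.97, 19.5, 36.4 and 17.0 CPM in 12-week WT. WT replicate 5_6 was highest and the groups overlapped. The log2 change was -0.36 ± 0.30 (edgeR adjusted p = 0.69). The 5 genes of the neuronal cytoskeleton (Nefl, Nefm, Map2, Tubb3 and Stmn2) ran from -0.55 to 0.69, with 3 below 0. The 3 genes that mark transmitter type, Slc17a7 for glutamate and Gad1 and Gad2 for GABA, ran from -0.91 to 1.06, with 1 below 0. Over all 18 neuron markers 12 were below 0 and the median log2 change was -0.35.

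Gfap (ENSMUSG00000020932) encodes the intermediate filament of astrocytes, which increases in reactive astrocytes. At 12 weeks it had 111, 63, 262 and 72 counts in the KO libraries, against 86 counts in WT replicate 5_6 and none in the other WT libraries. In CPM these were 11.2, 6.68, 32.2 and 9.01 in KO, against 3.76 in WT replicate 5_6. All KO libraries lay above all WT libraries, yet the test missed the threshold (log2 change 3.60 ± 1.43, edgeR adjusted p = 0.26). Without WT replicate 5_6 the adjusted p was 0.0016. No other astrocyte marker separated the groups. Slc1a2, the main glutamate transporter, had 10.5, 18.6, 7.74 and 13.6 CPM in KO, against 3.89, 9.95, 18.6 and 8.21 CPM in WT. Clu, a secreted chaperone, had 6.15, 11.03, 10.9 and 32.3 CPM in KO, against 15.5, 8.53, 10.5 and 23.1 CPM in WT. Their groups overlapped, with log2 changes of 0.36 ± 0.40 for Slc1a2 and 0.02 ± 0.51 for Clu. The median over the 8 tested astrocyte markers was 0.03.

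No oligodendrocyte marker passed the test at 12 weeks. Cnp, the myelin enzyme CNPase, stood at 92.2, 95.3, 93.6 and 87.0 CPM in 12-week KO, against 77.5, 100.7, 84.8 and 88.8 CPM in 12-week WT. Mag, an adhesion protein of the inner myelin wrap, stood at 39.4, 49.0, 31.7 and 35.5 CPM in KO, against 39.8, 45.4, 37.8 and 39.2 CPM in WT. Mbp, the protein that compacts myelin, stood at 57.3, 36.5, 44.4 and 23.8 CPM in KO, against 46.8, 77.4, 32.5 and 61.5 CPM in WT. The groups overlapped for all 3, and the Mbp change was -0.43 ± 0.27 on the log2 scale (edgeR adjusted p = 0.54). The median over the 6 tested oligodendrocyte markers was -0.08.

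Of the other precursor markers, Cspg4, the NG2 proteoglycan of precursors and of pericytes, stood at 3.93, 0.743, 0.614 and 1.88 CPM in 12-week KO. In 12-week WT it had 7 counts (0.306 CPM) in replicate 5_6 and none in the other libraries. The KO libraries lay above the WT libraries, with a log2 change of 4.25 ± 1.66 that missed the threshold (edgeR adjusted p = 0.23). Cspg4 and Ptprz1 therefore lay in opposite directions. Groups did not overlap for 3 markers that were higher in KO (Pdyn, Gfap and Cspg4), 8.82% of the 34, and for 3 that were lower (Ctnnd2, Ptprz1 and Syt1), also 8.82%. Over all genes 5.13% were higher and 3.07% lower without overlap. Ctnnd2 and Ptprz1 were known to differ when the markers were chosen, so these shares are not independent of that choice.

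**Figure D3:**
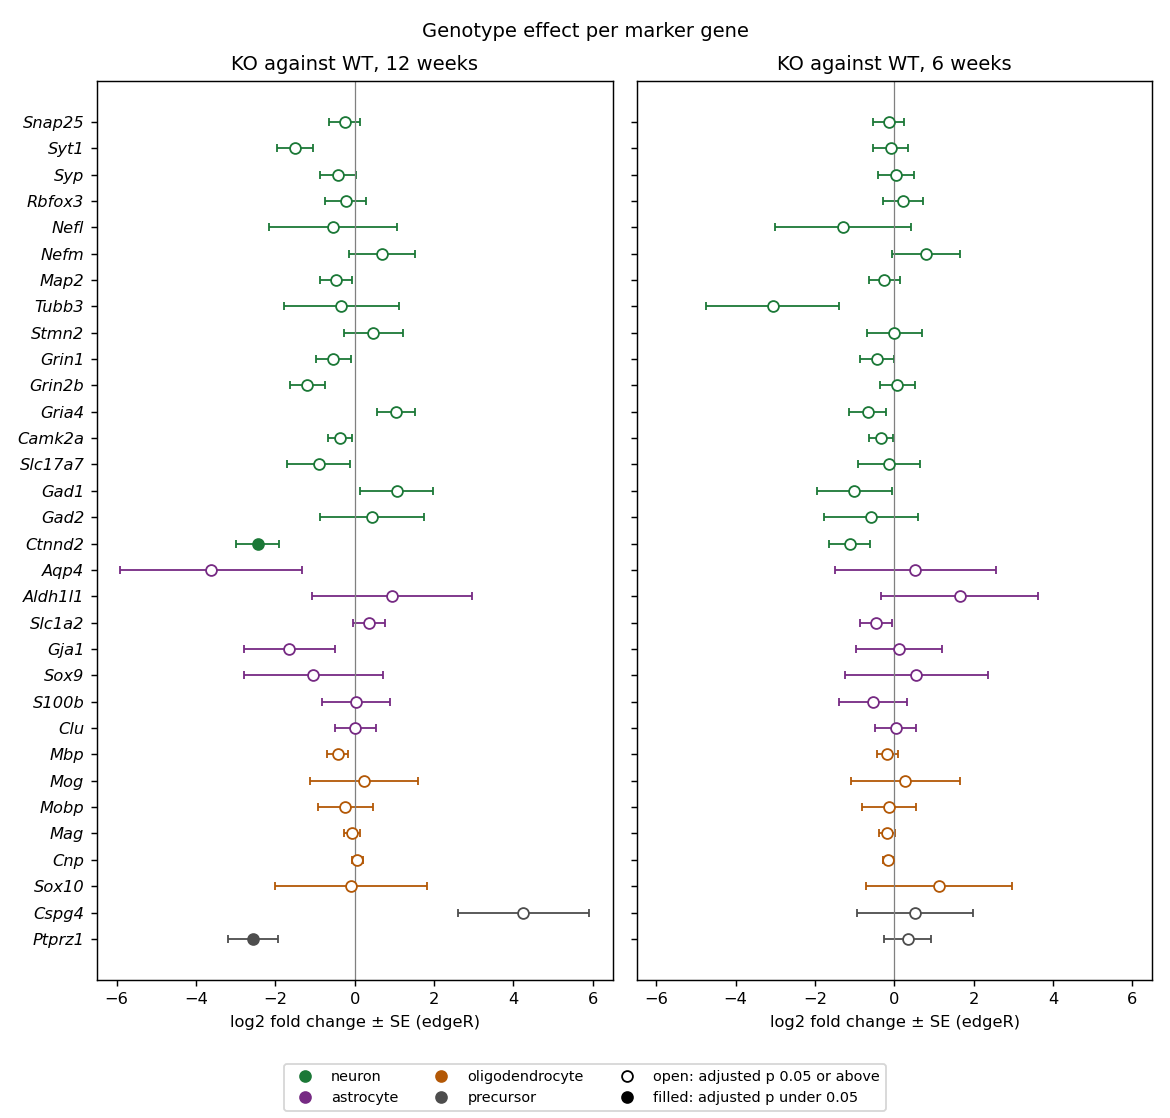
Log2 fold change of KO against WT with its standard error (edgeR) for 32 of the 34 tested markers at 12 weeks (left) and 6 weeks (right), coloured by class; filled points passed an adjusted p of 0.05. Pdyn and Gfap are left out because a group had no count at one of the ages; only Ctnnd2 and Ptprz1 at 12 weeks are filled, and Cnp and Mag lie close to 0 at both ages.

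At 6 weeks the same comparison of KO with WT gave no call among the 34 markers, where 0.872% of all genes passed (0.796% higher and 0.0761% lower in KO). Unadjusted p fell under 0.05 for 2 markers, Gfap (higher) and Ctnnd2 (lower), where 7.31% of all genes reached it. The median log2 change of the markers was -0.11, with 19 of 34 below 0, beside -0.02 and 51.8% below 0 over all genes. By class the median was -0.20 for neuron, 0.32 for astrocyte, -0.14 for oligodendrocyte and 0.43 for precursor markers.

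Gfap had 32, 89, 122 and 136 counts in the 6-week KO libraries and none in any 6-week WT library. In CPM the KO libraries stood at 3.11, 5.11, 12.98 and 7.80. Set against 3 counts over the WT group it was at least 94.3-fold higher, but the adjusted p of 0.095 missed the threshold (edgeR). The adjusted p was 0.0022 without 12-week WT replicate 5_6, 0.016 when only the 6-week groups were fitted, and 0.26 without 6-week WT replicate 3. Leaving out 1 of the 6-week libraries moved the bound between 63.6-fold and 112-fold. Gfap was thus detected in all 8 KO libraries and in 1 of the 8 WT libraries.

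Ctnnd2 at 6 weeks stood at 5.93, 2.07, 3.30 and 7.63 CPM in KO, against 9.68, 10.7, 8.36 and 8.84 CPM in WT. The groups did not overlap, as at 12 weeks, with a smaller log2 change of -1.13 ± 0.51 (edgeR adjusted p = 0.64). Pdyn had 46, 22, 34 and 136 counts in 6-week KO, against 8, 0, 28 and 34 in 6-week WT. The Pdyn groups overlapped, and the log2 change was 1.22 ± 0.97 (edgeR adjusted p = 0.98). Ptprz1 stood at 7.10, 5.05, 7.56 and 6.03 CPM in 6-week KO, against 3.34, 6.38, 0.868 and 10.1 CPM in 6-week WT. The KO libraries fell inside the range of the WT libraries, and the log2 change was 0.34 ± 0.59.

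The remaining markers showed overlapping groups at 6 weeks. Snap25 stood at 50.1, 27.6, 15.0 and 46.6 CPM in KO, against 31.3, 28.4, 34.5 and 57.7 CPM in WT. Syt1 stood at 55.4, 35.9, 11.8 and 18.6 CPM in KO, against 34.8, 22.2, 25.6 and 48.5 CPM in WT, a log2 change of -0.10 ± 0.43. Neither vesicle gene separated the genotypes. Cnp stood at 102, 94.2, 122 and 83.9 CPM in KO, against 121, 106, 103 and 118 CPM in WT. Mag stood at 33.9, 22.7, 26.7 and 39.9 CPM in KO, against 40.8, 25.9, 38.8 and 31.5 CPM in WT. Both myelin genes overlapped between genotypes. Without overlap there was 1 marker higher in KO, Gfap, and 1 lower, Ctnnd2, each 2.94% of the 34, where 4.92% of all genes were higher and 2.96% lower.

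KO microglia at 12 weeks were compared with KO microglia at 6 weeks to ask how these transcripts differed with age in the mutant. The 12-week KO libraries are those of the genotype comparison above, so differences that rest on them, as for Ptprz1, can appear in both. None of the 34 markers passed the threshold, where 0.0234% of all genes did (0.00585% higher and 0.0176% lower at 12 weeks). Mbp and Ptprz1 were the 2 markers with an unadjusted p under 0.05, both lower at 12 weeks, where 8.80% of all genes reached it. The median log2 change was -0.26, with 20 of 34 below 0, beside -0.02 and 51.8% below 0 over all genes.

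Mbp stood at 57.3, 36.5, 44.4 and 23.8 CPM in 12-week KO, against 78.0, 88.4, 71.1 and 68.7 CPM in 6-week KO. Every 12-week library was below every 6-week library, with a log2 change of -0.93 ± 0.27 (edgeR adjusted p = 0.27). Ptprz1 in 12-week KO lay at 0.743 to 2.33 CPM, against 5.05 to 7.56 CPM in 6-week KO, a log2 change of -2.04 ± 0.62 (edgeR adjusted p = 0.29). These 2 markers, 5.88% of the 34, were the ones without overlap between ages, where 3.51% of all genes were lower and 3.05% higher. Cnp did not share the Mbp pattern, at 87.0 to 95.3 CPM in 12-week KO against 83.9 to 122 CPM in 6-week KO.

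In WT mice the comparison of 12 with 6 weeks gave no call among the 34 markers either, where 0.0117% of all genes passed, all of them lower. It used the same 12-week WT libraries as the genotype comparison above, so differences that rest on those libraries appear in both. Unadjusted p fell under 0.05 for 6 markers, 2 higher and 4 lower at 12 weeks, where 7.44% of all genes reached it. The 2 higher markers were Gfap and Syt1. All 86 WT counts of Gfap lay in 12-week replicate 5_6. Syt1 was highest in 12-week replicates 5_6 and 8. The median log2 change was -0.09, with 18 of 34 below 0, beside -0.02 and 51.4% below 0 over all genes.

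Gria4 had the smallest p. It stood at 1.19, 2.75, 5.34 and 4.84 CPM in 12-week WT, against 15.1, 16.5, 13.1 and 17.8 CPM in 6-week WT. The groups were far apart, with a log2 change of -2.45 ± 0.50 that missed the threshold (edgeR adjusted p = 0.21). Pdyn, with no count at 12 weeks and 70 counts over the 6-week WT libraries, was at least 31.2-fold lower at 12 weeks (edgeR adjusted p = 0.21). This bound fell to 17.6-fold without 12-week WT replicate 5_6 and to 17.8-fold without 6-week WT replicate 4. Mbp stood at 32.5 to 77.4 CPM in 12-week WT, against 79.9 to 98.5 CPM in 6-week WT, a log2 change of -0.68 ± 0.27 (edgeR adjusted p = 0.57). Cnp stood at 77.5 to 100.7 CPM in 12-week WT, against 103 to 121 CPM in 6-week WT, a log2 change of -0.36 ± 0.14 (edgeR adjusted p = 0.55). Groups did not overlap for 3 lower markers (Gria4, Mbp and Cnp), 8.82% of the 34, and for Ctnnd2, which was higher, 2.94%. Over all genes 3% were lower and 2.31% higher without overlap.

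Whether the genotype difference itself changed between 6 and 12 weeks was tested as an interaction. None of the 34 markers passed, where 0.00585% of all genes did, and 4 had an unadjusted p under 0.05, where 4.74% of all genes reached it. The median interaction was -0.10 on the log2 scale, with 22 of 34 below 0, where 50.3% of all genes were. Ptprz1 had an interaction of -2.90 ± 0.85 (edgeR adjusted p = 0.83), from a 12-week change of -2.56 and a 6-week change of 0.34. For Pdyn the adjusted p was 0.54. For Ctnnd2 the interaction was -1.32 ± 0.71 (edgeR adjusted p = 1.0). The calls at 12 weeks and their lack at 6 weeks are therefore not shown to differ.

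Summing CPM over the markers of a class gave a level per library, as a description without a test. The neuron sum was 178 ± 40.8 CPM (SD, n = 4) in 12-week KO against 261 ± 62.6 CPM in 12-week WT, with ranges of 130.2 to 226 and 186 to 324 that overlapped. At 6 weeks it was 186 ± 57.1 CPM in KO against 214 ± 64.6 CPM in WT. On the log2 scale these differences were -0.55 and -0.21, beside a pooled SD between replicates of 0.351 and 0.446. The 12-week neuron difference thus exceeded 1 SD and the 6-week one did not. Among the 12-week WT libraries, replicates 5_6 and 8 were highest, at 324 and 299 CPM. Replicates 3 and 4 stood at 234 and 186 CPM. Without single libraries the 12-week neuron difference ran from -0.70 to -0.41, and leaving out replicates 5_6 and 8 together was not tested. The astrocyte sum was 47.4 ± 11.4 CPM in 12-week KO against 34.6 ± 6.82 CPM in 12-week WT, and 41.1 ± 4.73 CPM in 6-week KO against 37.3 ± 9.47 CPM in 6-week WT. On the log2 scale the astrocyte differences were 0.44 at 12 weeks and 0.17 at 6 weeks, beside pooled SDs of 0.327 and 0.292. The 12-week astrocyte difference thus also exceeded 1 SD. Gfap alone averaged 14.8 CPM in 12-week KO and 0.941 CPM in 12-week WT, a difference as large as that of the whole astrocyte sum.

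The oligodendrocyte sum was lower at 12 than at 6 weeks in both genotypes. It was 187 ± 26.6 CPM in 12-week KO against 229 ± 9.80 CPM in 6-week KO, and these groups did not overlap. In WT it was 199.97 ± 28.7 CPM at 12 weeks against 255 ± 17.3 CPM at 6 weeks, with overlap. The log2 differences between ages were -0.31 in KO and -0.36 in WT, beside pooled SDs of 0.159 and 0.162. Between genotypes they were -0.10 at 12 weeks, beside a pooled SD of 0.211, and -0.15 at 6 weeks, beside 0.0835. Of these genotype differences only the 6-week one exceeded 1 SD. The 12-week genotype difference was -0.26 without Cnp and 0.00026 without KO replicate 4. The precursor sum, of which Ptprz1 made 87.6%, was 3.40 ± 1.64 CPM in 12-week KO against 9.55 ± 0.723 CPM in 12-week WT, without overlap. At 6 weeks it was 7.16 ± 0.949 CPM in KO against 5.74 ± 4.52 CPM in WT.

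**Figure D4:**
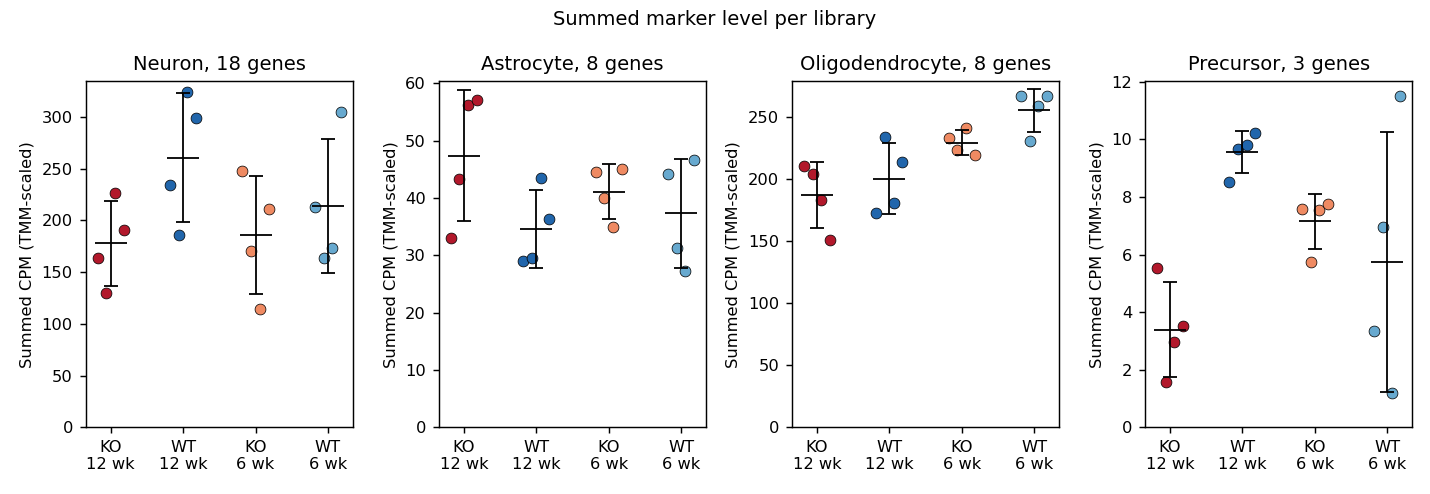
Summed CPM of the neuron, astrocyte, oligodendrocyte and precursor markers in each library (points), with the group mean and SD (n = 4; horizontal bar and whiskers). The precursor sum in 12-week KO lies below 6 CPM and below all 12-week WT libraries, and both 12-week groups have lower oligodendrocyte means than both 6-week groups.

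The classes did not vary together as 1 block over the libraries. As deviations from the group means on the log2 scale, the neuron and astrocyte sums had a Pearson r of 0.755 and a Spearman rho of 0.771 over the 16 libraries, and an r of 0.721 without the 2 libraries farthest from the median. Without Snap25 and Clu, which contribute most to these 2 sums, r was 0.384. Neuron and oligodendrocyte sums had an r of -0.245 and a rho of -0.282 (r of -0.296 without 2 libraries). Without Snap25 and Cnp, the most abundant of these 2 classes, r was -0.0918. For astrocyte and oligodendrocyte sums r was -0.321 and rho -0.279 (r of -0.193 without 2 libraries). Without Clu and Cnp it was -0.0577, and 0.188 when 2 libraries were also left out. Both sums of a pair come from the same library and share its scaling, and no p is given. Over the 16 libraries without centring, the neuron and astrocyte sums had an r of 0.286.

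**Figure D5:**
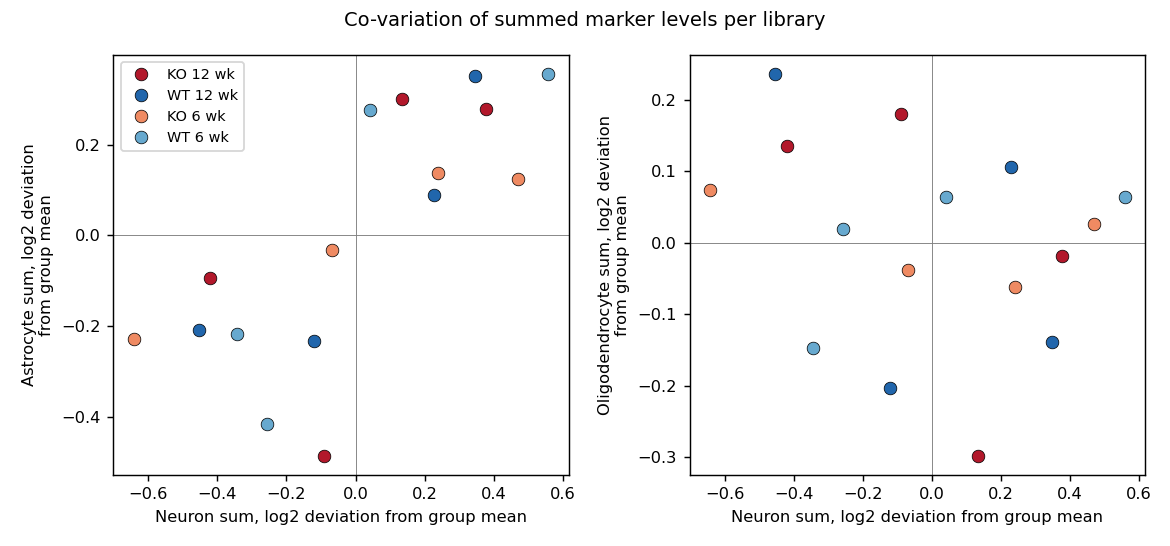
Log2 deviation of each library from its group mean for the neuron sum (x axis) against the astrocyte sum (left) and the oligodendrocyte sum (right); each point is 1 of 16 libraries, coloured by group. The left panel rises from lower left to upper right (Pearson r of 0.755), and the right panel shows no such rise (r of -0.245).

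The same could be seen gene by gene among the 19 markers with a mean of at least 5 CPM. Within the neuron class, 46 of 55 pairs had a Spearman rho above 0 for their deviations from group means, with a median of 0.285. Across classes it was 64 of 107 pairs, with a median of 0.0941. The median was 0.0721 over the 6 oligodendrocyte pairs and -0.202 over the 3 astrocyte pairs. The highest values were 0.694 for Ctnnd2 with Mag, 0.682 for Snap25 with Syt1, 0.659 for Syp with Clu and 0.650 for Syt1 with Grin2b. The lowest was -0.515 for Mag with Ptprz1. For log2 total count, r was 0.138 with the neuron, -0.0841 with the astrocyte and 0.0407 with the oligodendrocyte sum. Without the 2 libraries farthest from the median depth these were -0.284, -0.385 and 0.354.

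Further genes of the same cell types, from lists written beside the 38, were set next to them at 12 weeks. Of 35 other neuron genes 33 were tested and none passed the threshold. Unadjusted p fell under 0.05 for 7 of them, all lower in KO, and 25 lay below 0 with a median log2 change of -0.47. Over all genes tested 14.4% reached that p, 52% lay below 0 and the median was -0.03. Meg3 and Snhg11, long noncoding RNAs of neurons, led this list in CPM, with changes of -0.35 ± 0.24 and -0.78 ± 0.29 (edgeR adjusted p = 0.59 and 0.21). The summed CPM of this list and of the 18 neuron markers had an r of 0.821 over 16 libraries as deviations from group means (rho 0.809, and r of 0.714 without 2 libraries). The corresponding values were an r of -0.0504 (rho 0.0) for astrocytes and an r of 0.162 (rho 0.156) for oligodendrocytes. A single gene made much of each further sum: Meg3 54.3% for neurons, Glul 55.5% for astrocytes and Trf 97.1% for oligodendrocytes. How far these correlations rest on those genes was not tested.

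Of 20 other astrocyte genes 17 were tested, and Glul was the call, lower in KO, as were 0.954% of all genes. Glul, glutamine synthetase, stood at 400.5 ± 39.0 CPM (SD, n = 4) in 12-week KO against 544 ± 102 CPM in 12-week WT (log2 change -0.44 ± 0.11, edgeR adjusted p = 0.045). This call was kept in 1 of 16 fits that left out 1 library, the fit without 12-week WT replicate 8, and the adjusted p ran up to 0.20 in the others. Of 21 other oligodendrocyte genes 17 were tested, and Trf was the call, higher in KO, as were 2.03% of all genes. Trf, the iron carrier transferrin, stood at 3329 ± 167 CPM in KO against 2520 ± 231 CPM in WT (log2 change 0.40 ± 0.08, edgeR adjusted p = 0.014), and the call was kept in all 16 such fits. It was lost without 12-week WT replicates 3 and 8 together (adjusted p = 0.17) and with only the 12-week groups fitted (adjusted p = 0.055). Trf alone made 97.1% of the CPM of its list. None of 4 tested other precursor genes passed. At 6 weeks no gene of these lists passed.

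Summed levels of markers of other cells are given as a description without a test. The summed CPM of 8 border macrophage markers lay at 112 to 186 in 12-week KO against 7.77 to 54.1 in 12-week WT, and at 133 to 294 in 6-week KO against 50.98 to 94.2 in 6-week WT. At 12 weeks all 8 had a log2 change above 0, where 52% of all genes lay below it, and Ms4a7 was called higher, as were 2.03% of all genes. Cells positive for Ly6c, as classical monocytes are, were outside the gate. For 7 monocyte markers the sum was 44.4 to 90.3 CPM in 12-week KO against 1.08 to 36.96 CPM in 12-week WT, and 47.1 to 138 CPM in 6-week KO against 24.1 to 41.8 CPM in 6-week WT. F13a1, which both of these lists hold, made 73.3% of the monocyte sum, and no monocyte marker passed the test. Erythroid markers summed to 13.1 to 112 CPM in 12-week KO against 2.37 to 34.1 CPM in 12-week WT, and to 2.45 to 55.0 CPM in 6-week KO against 9.69 to 50.2 CPM in 6-week WT. These ranges overlapped at both ages and no erythroid marker passed. At 12 weeks all 5 tested erythroid markers had a log2 change above 0, with a median of 3.07. Of these, 3 had an unadjusted p under 0.05 (edgeR), where 14.4% of all genes reached it. Microglia markers summed to 55951 to 58878 CPM in 12-week KO against 71874 to 80480 CPM in 12-week WT, and 5 of 14 were lower at the threshold (Slc2a5, P2ry12, P2ry13, Gpr34 and Cx3cr1), where 0.954% of all genes were. Of 12 endothelial markers 4 were tested at 12 weeks, with 2 log2 changes above 0 and 2 below. Flt1 was called higher in KO (edgeR adjusted p = 0.043), as were 2.03% of all genes. The endothelial sum was 83.6 to 146 CPM in 12-week KO against 42.7 to 143 CPM in 12-week WT, with overlap. Mural and ependymal or choroid markers gave no call, with Kcnj8 of mural cells and Foxj1, Ccdc153 and Tmem212 of ependymal cells at 0 in every library. The part of any of these cells in the levels of Pdyn, Gfap, Ctnnd2 and Ptprz1 was not tested.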

How the data were processed

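Unnormalized read counts by gene were deposited by the authors, 1 file a library. Per the labels' protocols, RNA came from a column kit and libraries from a low-input kit. Tools listed in the submitters' processing notes are cutadapt 2.10, FastQC 0.11.9, HTSeq 0.11.0, Picard 2.13.2, SAMtools 1.10 and TopHat, with build GRCm39. How strand and shared reads were handled is not given in the sources used here. Genes with overlapping or near-identical partners are therefore uncertain.

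Genes were kept with filterByExpr (minimum count 10), leaving 17090. A quasi-likelihood model (edgeR 4.0.16, R 4.3.3; TMM; robust) had a term for each group and for sex over all 16 libraries. Two-sided p-values were adjusted over all genes with the Benjamini-Hochberg method (threshold 0.05). The standard error is the absolute log2 change over the square root of the F statistic. The model was tested on simulated data. Counting intervals (level 0.95) and floors of 3 counts cover counting error only, because PCR copies are not independent molecules. With 7882182 to 22142972 counts, depth limits markers with few counts.

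The markers, the further lists and the naming rule were chosen with earlier results of these data known. Values in every library are given for markers past the threshold, the 3 of each class with the highest mean CPM, and the smallest p in each comparison. Markers named for other reasons (Grin2b, Aqp4, Syp and those at or near 0) were chosen after their values were seen. Alternatives were DESeq2 1.42.0, other scalings, no filter, no sex term, the compared groups alone, a replicate block, and fits without single libraries.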

Additional observations from a re-analysis of the deposited data

Results flagged for a closer look

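Values of 70 marker and group combinations were screened for a library far from the other 3 of its group, by Dixon's test at the 95% level on the gap to its nearest neighbour. Chance alone would give about 3.5 in 70, and 4 were found. Summed precursor CPM was 5.74 in 6-week KO replicate 2, where the other 3 libraries lay between 7.56 and 7.75. The other 3 findings were all in 12-week WT replicate 5_6, the deepest library, whose Xist and Y-linked levels do not match its label. Camk2a was 36.4 CPM there, where the other 3 lay between 17.0 and 19.97 CPM. Gfap was 3.76 CPM there and had no count in the other 3. Cspg4 was 0.306 CPM there and had no count in the other 3. Where the other 3 libraries are at 0 any count passes this screen, so the chance rate does not apply to Gfap and Cspg4.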

How the results depend on the processing

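At 12 weeks 3 markers passed, 4 with DESeq2 (adding Syt1) and 5 without a filter on low counts (adding Gfap and Syt1). There was 1 with only the compared groups fitted, 1 with 12-week WT replicates 3 and 8 left out together (Pdyn in both) and 1 with a replicate block (Gfap). Leaving out single libraries gave 1 to 3, with 1 without 12-week WT replicate 3 or 12-week KO replicate 4. At 6 weeks the count of 0 became 1, Gfap in each case, with DESeq2, without a filter, with only the compared groups, with a replicate block and without WT replicates 3 and 8. Leaving out single libraries gave 0 to 1. Between ages in KO the count of 0 became 1 (Mbp), in WT 3 (Gfap, Gria4 and Pdyn) and for the interaction 2 (Gfap and Pdyn), each both with DESeq2 and without a filter. All WT counts of Gfap lay in 12-week replicate 5_6, so its call between ages in WT rests on that library. The Gfap interaction uses that library too. The oligodendrocyte difference between ages in KO was -0.47 without Cnp, against -0.31 with it. Log2 changes were followed through these fits for Pdyn, Ctnnd2, Ptprz1, Gfap, Syt1, Grin2b, Gria4, Mbp, Glul, Trf and Cspg4. Other named genes, some with changes near 0, were not followed in this way. None of the log2 changes followed changed sign. Small differences of class sums did: the neuron difference between ages in KO (-0.04) ran from -0.25 to 0.12 without single libraries, the astrocyte one in WT (-0.09) from -0.23 to 0.03, and the oligodendrocyte genotype difference at 12 weeks (-0.10) from -0.17 to 0.00026. The cause of these changes was not tested.

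Over all genes the 510 calls at 12 weeks were 1158 with DESeq2, 1073 without a filter, 204 with only the compared groups, 131 with the block, 307 without WT replicates 3 and 8 and 328 without KO replicate 2. The 149 at 6 weeks were 366 with DESeq2 and 353 without a filter, and 82 to 155 without single libraries. Ctnnd2 at 12 weeks had an adjusted p of 0.12, Ptprz1 of 0.36, and Pdyn of 0.069 under the replicate block. Without WT replicates 3 and 8 the adjusted p was 0.16 for Ctnnd2, 0.15 for Ptprz1 and 0.17 for Trf. Deviations of same-numbered libraries correlated between -0.0246 and 0.0623, so the numbers do not pair the samples. Depth limits markers near the floor.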
